A study of Mus musculus with 20 samples.

Results

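The 10 genes described here mark cardiac fibroblasts, the cells that make and maintain the collagen matrix of the heart: Pdgfra, Tcf21, Dpt, Gsn, Dpep1, Ddr2, Mfap5, Pi16, Abca8a and Mgp. They were chosen by name, all 10 were found among the 34291 gene rows of the count table, and all 10 were among the 13940 genes with enough counts to be tested. RNA came from whole frozen hearts of 20 C57BL/6 mice, each heart giving 1 poly(A) library. In the rapamycin group 10 animals ate food with rapamycin at 14 ppm, a drug that blocks the nutrient-sensing kinase mTOR. In the control group 10 animals of the same age ate the control diet. Feeding ran for 3 months from 24 months of age, so all hearts were 27 months old when taken, and the sex of the animals is not given in the sources used here. The design addresses how rapamycin given late in life alters transcripts of the aged heart. Hearts are called by diet and label number.

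Cardiac fibroblasts descend largely from the epicardium, lie between the muscle cells, and carry receptors for growth factors and for collagen. They secrete proteins that organise collagen fibrils and elastic microfibrils, and after injury some of them turn into contractile myofibroblasts. None of the 10 genes is made by fibroblasts alone: gelsolin and matrix Gla protein in particular are also made by other cells of the heart and its vessels. In RNA of a whole heart, fewer fibroblasts and less of a transcript per fibroblast cannot be told apart.

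Library totals were 8525162 to 12458309 counts with rapamycin and 7039514 to 10594335 counts in controls. The library of control 19 stood apart from all others: 5 lung epithelium genes summed to 23990 normalised CPM (counts expressed per library size, after scaling) there, against 0.410 to 136 with rapamycin and 0.625 to 351 in the 9 other controls. It also had the lowest sum of 12 cardiomyocyte markers, at 25378 normalised CPM, where rapamycin hearts had 65067 to 89942 and the control group reached 81706. The results for the marker genes are therefore given with and without control 19. Over all genes tested, 469 changed with rapamycin (3.36%, edgeR quasi-likelihood test with Benjamini-Hochberg adjustment, adjusted p under 0.05), 96 upward and 373 downward. Without control 19, 472 of 13977 genes changed (3.38%), 147 upward and 325 downward.

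Promoter sequence is shown for Pdgfra, Ddr2, Abca8a and Dpt, which were all correlated with one another across hearts when control 19 was left out. Over all 20 hearts Pdgfra was correlated neither with Abca8a (Pearson r = 0.40, adjusted p = 0.201 by permutation) nor with Dpt (r = 0.51, adjusted p = 0.079 by permutation). The correlations are described further on. The sequences are those of RefSeq on build GRCm38.p6, from 250 bases before to 50 bases after the annotated start, read 5′ to 3′ on the strand of the gene. RefSeq windows were matched for 8 of the 10 genes, with 10 windows in all because Gsn has 3. Mgp and Mfap5 had no window, so their promoters could not be shown. Capitals mark matches to 4 motifs searched on both strands: the E-box CAGCTG that basic helix-loop-helix factors such as Tcf21 can bind, the TATA box TATAAA, the AP-1 site TGANTCA and the TEAD site GGAATG.
Pdgfra, chr5:75152001-75152300, plus strand: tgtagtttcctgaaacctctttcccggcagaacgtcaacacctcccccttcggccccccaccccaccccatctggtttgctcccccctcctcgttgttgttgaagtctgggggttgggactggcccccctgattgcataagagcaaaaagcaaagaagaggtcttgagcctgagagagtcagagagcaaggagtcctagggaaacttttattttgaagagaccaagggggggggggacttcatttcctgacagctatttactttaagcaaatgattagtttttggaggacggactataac
Ddr2, chr1:170088895-170089194, minus strand: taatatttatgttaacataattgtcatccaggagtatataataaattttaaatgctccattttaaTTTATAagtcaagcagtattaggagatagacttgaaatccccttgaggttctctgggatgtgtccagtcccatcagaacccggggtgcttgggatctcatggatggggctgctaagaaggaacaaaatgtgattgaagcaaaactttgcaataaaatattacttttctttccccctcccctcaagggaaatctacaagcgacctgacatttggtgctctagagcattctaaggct
Abca8a, chr11:110095888-110096187, minus strand: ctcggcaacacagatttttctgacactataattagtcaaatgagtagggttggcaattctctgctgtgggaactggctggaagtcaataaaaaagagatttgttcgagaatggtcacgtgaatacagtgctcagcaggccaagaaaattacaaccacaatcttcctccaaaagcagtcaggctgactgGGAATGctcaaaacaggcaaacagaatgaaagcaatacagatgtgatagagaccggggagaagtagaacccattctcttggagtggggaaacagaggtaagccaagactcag
Dpt, chr1:164796413-164796712, plus strand: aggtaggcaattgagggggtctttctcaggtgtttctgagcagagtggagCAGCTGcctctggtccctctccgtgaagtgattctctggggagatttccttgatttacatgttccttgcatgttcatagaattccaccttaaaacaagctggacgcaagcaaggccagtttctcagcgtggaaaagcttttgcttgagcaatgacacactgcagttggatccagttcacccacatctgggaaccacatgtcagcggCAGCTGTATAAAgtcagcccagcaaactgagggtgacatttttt

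The Dpt window held CAGCTG at bases 51 to 56 and 257 to 262, counted from the 5′ end, and TATAAA directly after the second match at bases 263 to 268. The Ddr2 window held TATAAA once, on the opposite strand at bases 66 to 71, and the Abca8a window held GGAATG at bases 189 to 194. No match to the 4 motifs lay in the Pdgfra window. The last bases of that window, past the annotated start, were not found in any Pdgfra transcript of GENCODE M21. Those of the Ddr2, Abca8a and Dpt windows were found in transcripts of their genes. Of the 10 windows of marker genes, 5 held CAGCTG, 2 TATAAA, 2 GGAATG and 0 TGANTCA. Among all 32851 RefSeq promoter windows of the same length the shares were 16.3% for CAGCTG, 13.6% for TATAAA, 14.7% for GGAATG and 7.81% for TGANTCA. These are matches of letters and say nothing of binding.

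None of the 10 fibroblast marker genes changed with rapamycin at an adjusted p under 0.05, where 3.36% of all genes tested did. The estimate was below 0 for 9 of them, against 52.5% of all genes, and above 0 for Abca8a. Their median log2 fold change was -0.13, ranging from -0.33 for Mgp to 0.23 for Abca8a, and the median of all genes was -0.01. An unadjusted p under 0.05 was reached by 2 of the 10, Dpep1 and Mgp, a share to be read against 21.7% of all genes. DESeq2 and limma-voom also called 0 of the 10, where over all genes they called 1018 of 16574 and 1076 of 13940. With each tool 2 of the 10 had an unadjusted p under 0.05, for which the share over all genes is not given here. Without control 19 the test called 0 of the 10 again (3.38% of all genes), 2 had an unadjusted p under 0.05 (19.4% of all genes), 8 estimates were below 0 (48.6% of all genes) and the median was -0.12. For each of the 10 genes the ranges of the 2 diets overlapped, and the share of all genes with such an overlap was not counted.

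**Figure D1:**
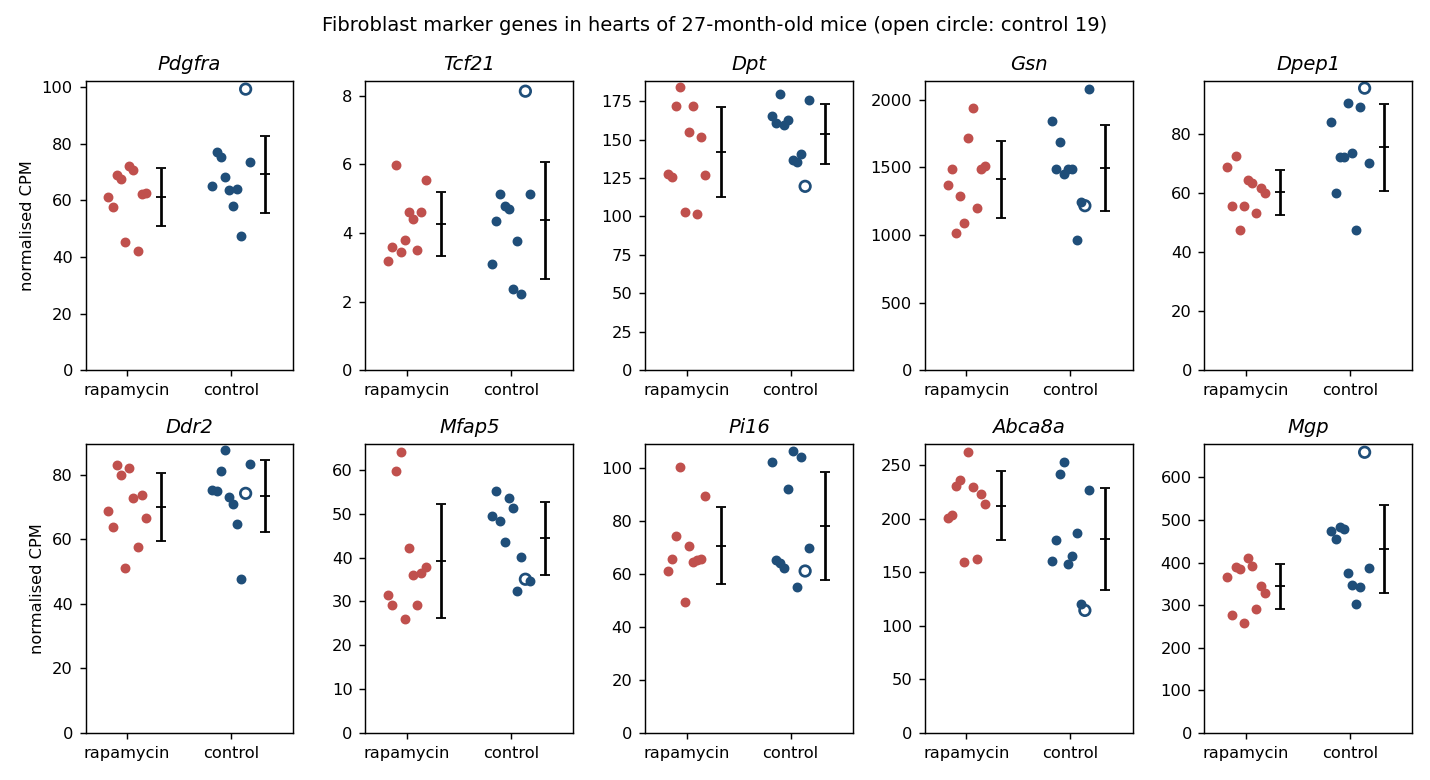
Normalised CPM (vertical axes, from 0) of the 10 fibroblast marker genes in 10 rapamycin hearts (red) and 10 control hearts (blue); each point is 1 heart, bars show mean ± SD, and the open circle is control 19. All 10 pairs of groups overlap, and control 19 is the highest heart for Pdgfra, Tcf21, Dpep1 and Mgp and the lowest for Abca8a.

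Of the receptors, Pdgfra, the receptor tyrosine kinase for platelet-derived growth factors, had 42.1, 62.4 and 72.0 normalised CPM in the lowest, median and highest rapamycin heart and 47.5, 66.6 and 99.2 in controls. The top control value was control 19, and the next highest control heart lay at 77.1. Means were 61.0 ± 10.3 with rapamycin and 69.2 ± 13.7 in controls (SD, n = 10 each). The log2 fold change was -0.18 ± 0.11 (SE, adjusted p = 0.367 by edgeR, 95% interval -0.42 to 0.059) and -0.10 ± 0.10 without control 19 (adjusted p = 0.639). Ddr2, a receptor tyrosine kinase that is activated by fibrillar collagen, had 51.1, 70.8 and 83.0 normalised CPM in the lowest, median and highest rapamycin heart and 47.7, 74.6 and 87.6 in controls. Its groups covered nearly the same range, with means of 69.9 ± 10.6 with rapamycin and 73.3 ± 11.1 in controls (SD, n = 10 each). The log2 fold change was -0.068 ± 0.098 (SE, adjusted p = 0.729 by edgeR, 95% interval -0.27 to 0.14), and -0.059 without control 19 (adjusted p = 0.814).

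Tcf21, a basic helix-loop-helix transcription factor that in mice is needed for the epicardium to form cardiac fibroblasts, was the least abundant of the 10. It had 3.19, 4.10 and 5.97 normalised CPM in the lowest, median and highest rapamycin heart and 2.21, 4.52 and 8.13 in controls. Its raw counts ran from 22 to 79 per library, so that counting alone gives a coefficient of variation of 15.4%. The highest control value was control 19, and without it the controls reached 5.13, below the highest rapamycin heart. The log2 fold change was -0.022 ± 0.19 (SE, adjusted p = 0.963 by edgeR, 95% interval -0.43 to 0.39), and its sign turned without control 19, to 0.13 (adjusted p = 0.749).

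Among the matrix proteins, Dpt encodes dermatopontin, which binds the proteoglycan decorin and takes part in the assembly of collagen fibrils. It had 102, 139.7 and 184 normalised CPM in the lowest, median and highest rapamycin heart and 119.6, 160.2 and 179 in controls. The 2 lowest of all 20 hearts were rapamycin 14 and rapamycin 8, and the highest was rapamycin 6, so rapamycin hearts lay at both ends. Means were 142 ± 29.2 with rapamycin and 154 ± 19.5 in controls (SD, n = 10 each), with a log2 fold change of -0.11 ± 0.11 (SE, adjusted p = 0.565 by edgeR, 95% interval -0.34 to 0.11), or -0.14 without control 19 (adjusted p = 0.497). Mfap5, a glycoprotein of the fibrillin microfibrils that scaffold elastic fibres, had 25.9, 36.4 and 64.1 normalised CPM in the lowest, median and highest rapamycin heart and 32.4, 45.9 and 55.1 in controls. The 2 highest hearts, rapamycin 6 with 64.1 and rapamycin 5 with 59.9, were treated, while the other 8 rapamycin hearts lay below the control median. Its log2 fold change was -0.18 ± 0.15 (SE, adjusted p = 0.533 by edgeR, 95% interval -0.50 to 0.15) and -0.20 without control 19 (adjusted p = 0.523).

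Mgp encodes matrix Gla protein, a small vitamin K-dependent secreted protein that keeps soft tissue and arteries from calcifying. It had 258, 355 and 410.4 normalised CPM in the lowest, median and highest rapamycin heart and 303, 422 and 659 in controls. All 10 rapamycin hearts lay below the control median, 5 of the 10 control hearts lay below the highest rapamycin heart, and control 19 stood far above the rest, the next control heart having 485. Means were 344 ± 53.3 with rapamycin and 431 ± 103 in controls (SD, n = 10 each). The log2 fold change of -0.33 ± 0.12 did not pass (SE, adjusted p = 0.127 by edgeR, unadjusted p = 0.0139, 95% interval -0.58 to -0.070). Without control 19 the control mean was 406 ± 68.9 (SD, n = 9) and the log2 fold change was -0.23 ± 0.10 (adjusted p = 0.217).

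Gsn, which encodes the actin-severing protein gelsolin in a cytoplasmic and a secreted form, was the most abundant of the 10. It had 1012, 1428 and 1936 normalised CPM in the lowest, median and highest rapamycin heart and 963, 1485 and 2082 in controls. At 9235 to 22719 counts per library, counting error is 0.841%, against coefficients of variation of 20.01% among rapamycin hearts and 21.5% among controls. Rapamycin over control gave a log2 fold change of -0.083 ± 0.13 (SE, adjusted p = 0.751 by edgeR, 95% interval -0.36 to 0.19), and -0.11 without control 19 (adjusted p = 0.714).

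Dpep1 encodes a membrane-bound dipeptidase that splits glutathione breakdown products and leukotrienes. It had 47.3, 60.9 and 72.6 normalised CPM in the lowest, median and highest rapamycin heart and 47.6, 72.7 and 95.5 in controls. Every rapamycin heart lay below the control median, but control 16, at 47.6, lay beside the lowest rapamycin heart. Means were 60.2 ± 7.57 with rapamycin and 75.4 ± 14.7 in controls (SD, n = 10 each). The log2 fold change of -0.32 ± 0.10 had the smallest p of the 10 genes and did not pass (SE, adjusted p = 0.0827 by edgeR, unadjusted p = 0.00546, 95% interval -0.54 to -0.10). Without control 16 it passed (-0.38, adjusted p = 0.0281), and without control 19 it did not (-0.27 ± 0.10, adjusted p = 0.130). The mean log2 level of 10 mesothelium and epicardium markers moved with Dpep1 across hearts, as given further on, and its part in this estimate was not tested. The sum of these markers was 41.1 to 134 normalised CPM with rapamycin and 70.8 to 327 in controls. The highest control was control 19, and the next had 230.

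Pi16, a secreted peptidase inhibitor of fibroblasts that lie around vessels, had 49.3, 65.8 and 100.3 normalised CPM in the lowest, median and highest rapamycin heart and 55.2, 67.7 and 106 in controls. Of the control hearts 4 lay between 92.3 and 106 and 6 between 55.2 and 70.0 normalised CPM, and the medians of the diets were close. Its log2 fold change was -0.15 ± 0.14 (SE, adjusted p = 0.560 by edgeR, 95% interval -0.44 to 0.14), and -0.18 without control 19 (adjusted p = 0.529). Abca8a, a lipid transporter of the ABC family, had 160.2, 219 and 263 normalised CPM in the lowest, median and highest rapamycin heart and 115, 173 and 253 in controls. It was the only one of the 10 with a positive estimate, and 2 of the 10 rapamycin hearts lay below the control median. Its log2 fold change was 0.23 ± 0.13 (SE, adjusted p = 0.314 by edgeR, 95% interval -0.046 to 0.51) and 0.18 ± 0.12 without control 19, the lowest heart (adjusted p = 0.447). Abca8a shares 1.89% of its 50-base words exactly with its neighbour paralog Abca8b. Reads were placed with at most 2 mismatches, and stretches that differ at single bases were not counted. The share of ambiguous reads is therefore not known.

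**Figure D2:**
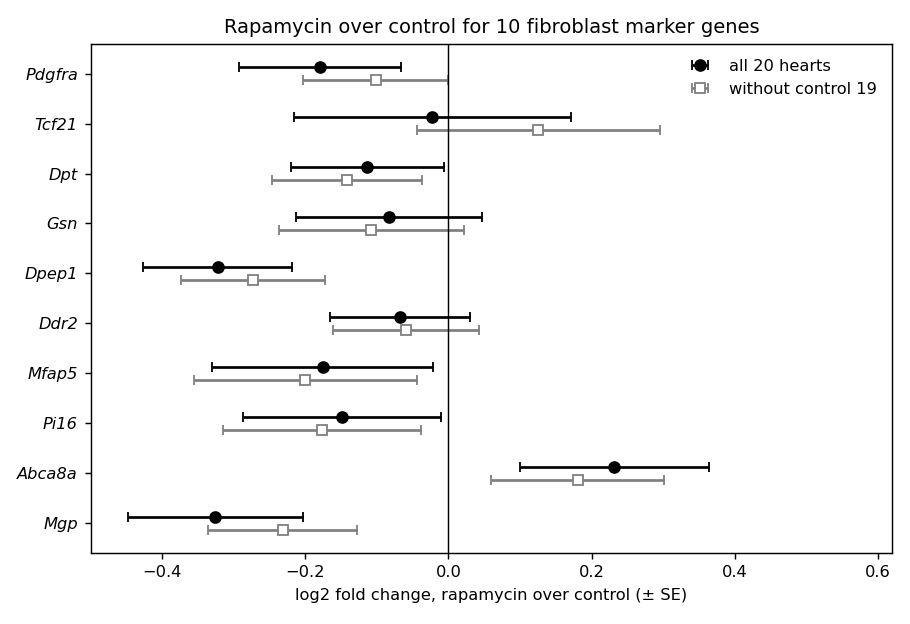
Log2 fold change of rapamycin over control (horizontal axis, ± SE) for each marker gene from the edgeR fit, with all 20 hearts (filled circles) and without control 19 (open squares). Without control 19 Mgp was -0.23 in place of -0.33, Tcf21 crossed 0 to 0.13, and Dpep1 was -0.27 in place of -0.32.

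Levels were also taken per kilobase of exon, with the exons of all annotated transcripts of a gene joined. By this length Gsn (447 CPM per kb with rapamycin, 473 in controls) and Mgp (290 with rapamycin, 363 in controls) were highest. Dpt followed (82.3 with rapamycin, 89.1 in controls). Abca8a had 33.9 ± 5.12 CPM per kb with rapamycin and 28.9 ± 7.58 in controls (SD, n = 10 each). Dpep1 had 24.2 ± 3.04 CPM per kb with rapamycin and 30.3 ± 5.93 in controls (SD, n = 10 each). Dpep1 lay above Abca8a in 0 of 10 rapamycin hearts and in 5 of 10 control hearts, so the controls showed no order of the 2 genes. Control 19 was the highest of all 20 hearts for Dpep1 and the lowest for Abca8a. By this length Pi16 (11.1 with rapamycin, 12.3 in controls) and Mfap5 (10.9 with rapamycin, 12.4 in controls) did not differ beyond their spread. Ddr2 averaged 7.55 CPM per kb with rapamycin and 7.92 in controls, and Pdgfra 6.09 with rapamycin and 6.90 in controls. Ddr2 lay above Pdgfra in 10 of 10 rapamycin hearts and in 9 of 10 control hearts, the exception being control 19. Tcf21 was lowest, at 1.82 CPM per kb with rapamycin and 1.86 in controls. The exon lengths come from an annotation of another build than that of the counts. The longest coding transcript of Mgp has 617 bases, against 1.187 kb of joined exons. For Gsn the lengths are 2653 bases and 3.157 kb, and for Pdgfra 6834 bases and 10.024 kb. The order of genes with close levels, such as Gsn and Mgp or Ddr2 and Pdgfra, can therefore differ with the length used. Antisense genes overlap Pdgfra, Pi16 and Ddr2 over 4.55%, 3.49% and 0.97% of their exons, and since the strand setting of the counting is not given, their reads cannot be told apart.

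Genes that work with the receptors or belong to their family did not pass either. Of 6 platelet-derived growth factor ligands and receptors 0 rose and 0 fell (edgeR, 1 at an unadjusted p under 0.05), with a median log2 fold change of 0.02. Pdgfc, a ligand of Pdgfra, had 4.74 ± 1.10 normalised CPM with rapamycin and 7.02 ± 2.46 in controls (SD, n = 10 each), with a log2 fold change of -0.57 ± 0.18 (adjusted p = 0.0742 by edgeR, and 0.0614 without control 19). It was the 1 gene of this list that DESeq2 and limma-voom called (adjusted p = 0.0484 and 0.0496). The sister receptor Pdgfrb stood at 0.15 ± 0.087 (adjusted p = 0.325 by edgeR), and at 0.098 without control 19. The 5 fibrillar collagen genes that can activate Ddr2 and its relative Ddr1 all had estimates below 0, with a median of -0.19 over the 6 genes and 0 called by edgeR (1 at an unadjusted p under 0.05; DESeq2 called 0 and limma-voom Col5a2). Col5a2 stood at -0.28 ± 0.13 (adjusted p = 0.217 by edgeR) and Col1a1, a chain of type I collagen, at -0.26 ± 0.16 (adjusted p = 0.350 by edgeR). Of 5 partners and relatives of Tcf21 0 passed in edgeR, DESeq2 or limma-voom (1 at an unadjusted p under 0.05), with Tcf15 at 0.42 ± 0.16 (adjusted p = 0.143 by edgeR) and the dimer partner Tcf3 at -0.09 ± 0.07 (adjusted p = 0.449 by edgeR).

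In 2 lists of relatives a gene fell. Capg, an actin-capping member of the gelsolin family that is abundant in macrophages, fell to 26.3 ± 3.87 normalised CPM with rapamycin, against 35.1 ± 6.04 in controls (SD, n = 10 each). Its log2 fold change was -0.41 ± 0.10 (adjusted p = 0.0255 by edgeR, and 0.0297 without control 19). It was 1 of 5 tested genes of the list, whose median was 0.14 (0.08 without control 19), and Flii had the next smallest p (0.18 ± 0.08, adjusted p = 0.182 by edgeR). Of 10 macrophage markers 9 fell, and their sums were 508 to 978 normalised CPM with rapamycin and 708 to 3502 in controls, or 708 to 1437 without control 19; their part in the result for Capg was not tested. Vkorc1, the reductase that recycles vitamin K for the carboxylation of Mgp and other Gla proteins, fell to 13.1 ± 1.29 normalised CPM with rapamycin, against 15.8 ± 1.55 in controls (SD, n = 10 each). Its log2 fold change was -0.27 ± 0.07 (adjusted p = 0.0354 by edgeR), and without control 19 it did not pass (-0.22, adjusted p = 0.0539). It was 1 of 6 tested genes of its list, whose median was -0.09, and Gas6, a secreted Gla protein, stood at -0.14 ± 0.10 (adjusted p = 0.430 by edgeR).

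Of 10 microfibril and elastic fibre genes 0 passed in edgeR (3 at an unadjusted p under 0.05), with a median of -0.16, or -0.04 without control 19. Ltbp1, which stores latent TGF-beta on microfibrils, stood at 0.22 ± 0.073 (adjusted p = 0.0829 by edgeR) and was the 1 gene of the list that DESeq2 and limma-voom called (adjusted p = 0.0362 and 0.0475). Mfap4 stood at -0.85 ± 0.36 (adjusted p = 0.171 by edgeR) and at -0.29 without control 19. Of 6 tested paralogs of Dpep1, Pi16 and Abca8a 0 passed in edgeR, DESeq2 or limma-voom (1 at an unadjusted p under 0.05), with a median of 0.07, or 0.14 without control 19. The transporters Abca6 (0.41 ± 0.15, adjusted p = 0.125 by edgeR) and Abca8b (0.29 ± 0.15, adjusted p = 0.265 by edgeR) had estimates above 0, as Abca8a did. In a longer list of 24 genes that cardiac fibroblasts express, 0 passed in edgeR, DESeq2 or limma-voom (3 at an unadjusted p under 0.05), 13 were below 0 and the median was -0.03, or -0.09 without control 19. The smallest p there belonged to Pcolce, an enhancer of procollagen processing (-0.21 ± 0.08, adjusted p = 0.125 by edgeR), and to Mfap4. Of 14 tested genes of activated fibroblasts 0 passed in edgeR (1 at an unadjusted p under 0.05; DESeq2 called 0 and limma-voom Timp1), with a median of 0.02, or -0.017 without control 19. The metalloproteinase inhibitor Timp1 stood at -0.58 ± 0.28 (adjusted p = 0.230 by edgeR) and Lox, which crosslinks collagen, at -0.70 ± 0.36 (adjusted p = 0.263 by edgeR), or -0.40 without control 19 (adjusted p = 0.543).

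Many of the marker genes were high in the same hearts and low in the same hearts. To keep a diet difference from entering, log2 normalised CPM was centred on the mean of each diet. Over 20 hearts the median Pearson r of the 45 pairs of marker genes was 0.31, and 40 pairs were above 0, whereas the median over all pairs of tested genes was -0.002. An r of at least 0.5 was reached by 13 pairs (28.9%), against 8.11% of all gene pairs, and without control 19 by 18 of the 45 pairs, against 5.57% of all gene pairs. Without control 19 the median r was 0.44. By a permutation test within diets, adjusted over the 45 pairs, 9 pairs were correlated, and 17 were without control 19, with all 9 among them. The shares over all gene pairs are a description, since genes of 1 cell type share the cells they come from.

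**Figure D3:**
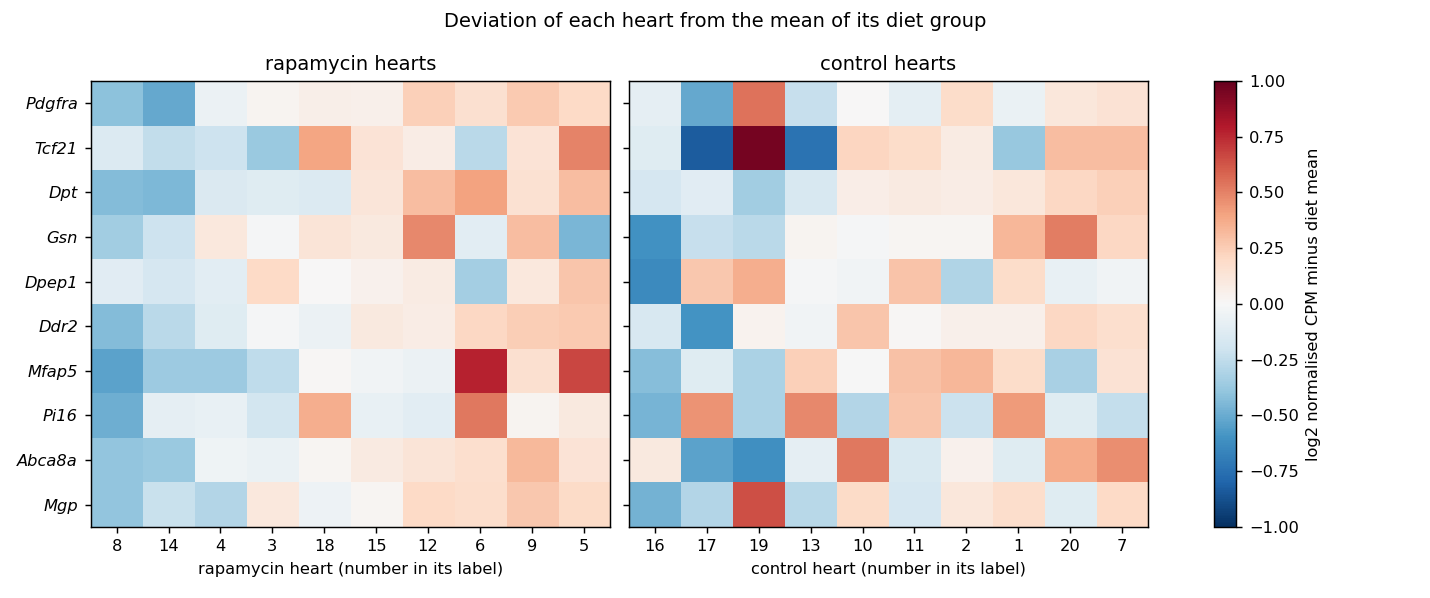
Log2 normalised CPM of each marker gene (rows) in each heart (columns, with rapamycin hearts left and control hearts right), minus the mean of its diet; red is above and blue below the mean. In rapamycin 8 and rapamycin 14 all 10 genes are below the mean and in rapamycin 9 all 10 are above it, while control 19 has Tcf21 at 0.96 above and Abca8a at 0.61 below.

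In rapamycin 8 and rapamycin 14 0 of the 10 marker genes lay above the mean of their diet, with median deviations of -0.40 and -0.25 on the log2 scale. In rapamycin 9 all 10 lay above it (median deviation 0.20). In rapamycin 5 all but Gsn lay above it, and Gsn was 0.45 below. Among controls, 1 of 10 lay above the mean in control 16 and 2 of 10 in control 17, where Tcf21 was 0.83 below and Pi16 0.45 above. With 1 heart left out at a time, 7 (without rapamycin 8) to 17 (without control 19) pairs were correlated.

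The highest rank correlation joined Pdgfra and Mgp, the growth factor receptor and the matrix Gla protein. Their Pearson r was 0.81 (permutation p = 6e-05, adjusted p = 0.00135) and their Spearman rho 0.84 (permutation p = 1e-05, the smallest that the resamples can give, adjusted p = 0.00045). Without the 2 hearts farthest from the median of Pdgfra, control 17 and rapamycin 14, r was 0.85, and without control 19 it was 0.74. Within rapamycin hearts r was 0.87 and within controls 0.79. Ddr2 and Abca8a, the collagen receptor and the transporter, had an r of 0.75 (permutation p = 9e-05, adjusted p = 0.00135) and a rho of 0.78 (permutation p = 9e-05, adjusted p = 0.00203). For this pair r was 0.65 without the 2 farthest hearts, control 17 and rapamycin 8, and 0.88 without control 19, with 0.94 within rapamycin hearts and 0.68 within controls. Dpt and Ddr2 had an r of 0.72 (permutation p = 0.00036, adjusted p = 0.00315) and a rho of 0.78 (permutation p = 0.00017, adjusted p = 0.00255). Without the 2 farthest hearts, rapamycin 14 and rapamycin 8, their r was 0.60, and without control 19 it was 0.78.

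Some values turned on control 19. Pdgfra and Abca8a had an r of 0.40 over all hearts (permutation p = 0.0939, adjusted p = 0.201, rho 0.51 with permutation p = 0.0254 and adjusted p = 0.0878), and an r of 0.84 without that heart (permutation p = 4e-05, adjusted p = 0.00036). Without control 17 and rapamycin 14, the 2 hearts farthest on Pdgfra, but with control 19, it was 0.10. Ddr2 was correlated with the most partners, 4 of 9, and 6 of 9 without control 19. Pdgfra, Dpt, Abca8a and Mgp each had 5 called partners without that heart. Gsn and Dpep1 had 0 called partners among 9 with or without it, their highest r being 0.48 and 0.45 over all hearts.

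**Figure D4:**
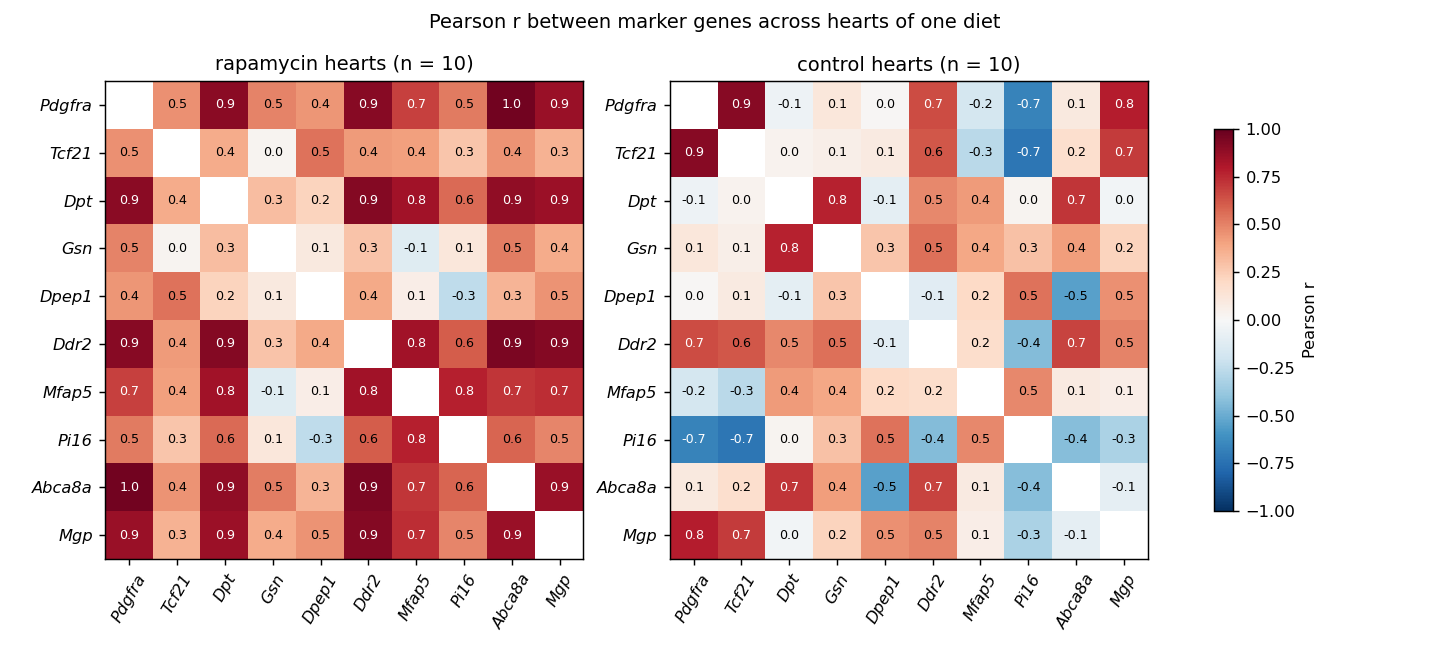
Pearson r between the 10 marker genes across 10 rapamycin hearts (left) and 10 control hearts (right), on a colour scale from -1 to 1. In rapamycin hearts Pdgfra, Dpt, Ddr2, Abca8a and Mgp form a block of high r. In control hearts, control 19 included, Pi16 has an r of -0.67 with Pdgfra and of -0.72 with Tcf21. The control r of Pdgfra and Dpt is -0.052 here, and 0.71 without control 19.

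Over all 20 hearts Pi16 was not correlated with the receptor genes Pdgfra and Ddr2, and its r with Ddr2 was 0.0021 (permutation p = 0.993, adjusted p = 0.993). Within rapamycin hearts its r was 0.52 with Pdgfra and 0.61 with Ddr2, and within controls it was -0.67 and -0.44. The lowest rank correlation over all 20 hearts was that of Tcf21 and Pi16, with an r of -0.42 (permutation p = 0.0939, adjusted p = 0.201) and a rho of -0.36 (permutation p = 0.140, adjusted p = 0.251), or an r of -0.24 without the 2 hearts farthest on Tcf21, control 17 and control 19. Dpep1 and Abca8a followed with an r of -0.31 (permutation p = 0.254, adjusted p = 0.424) and a rho of -0.31 (permutation p = 0.215, adjusted p = 0.358), or an r of -0.18 without control 16 and control 19. Pdgfra and Pi16 had an r of -0.16 (permutation p = 0.502, adjusted p = 0.628) and a rho of -0.13 (permutation p = 0.583, adjusted p = 0.673), or an r of -0.049 without control 17 and rapamycin 14. None of these passed. The 1 partner with which Pi16 was correlated was Mfap5 (r = 0.605, permutation p = 0.00412, adjusted p = 0.0206, rho 0.60, permutation p = 0.00649, adjusted p = 0.0334), with an r of 0.55 without rapamycin 6 and rapamycin 5 and of 0.58 without control 19.

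No difference between the diets in how tightly the genes moved together passed. Within rapamycin hearts 13 pairs were correlated and within control hearts 1, each by permutation over 10 hearts. Leaving out control 19 moved r within controls in either direction. For Pdgfra and Dpt it was -0.052 with that heart and 0.71 without it, and for Dpt and Mgp -0.031 and 0.77. For Pdgfra and Mgp it was 0.79 with that heart and 0.60 without it. Pdgfra and Pi16 had an r of 0.52 within rapamycin hearts and of -0.67 within controls, a difference of 1.19 (permutation of diet labels, p = 0.00993, adjusted p = 0.226 over 45 pairs). The r was higher in rapamycin hearts for 33 of the 45 pairs. In the permutation of diet labels 0 of 45 differences passed and 7 had an unadjusted p under 0.05, with the same counts without control 19. The smallest adjusted p without that heart was 0.0585, for Pi16 and Abca8a, whose r was 0.58 within rapamycin hearts and -0.75 within the other 9 controls.

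**Figure D5:**
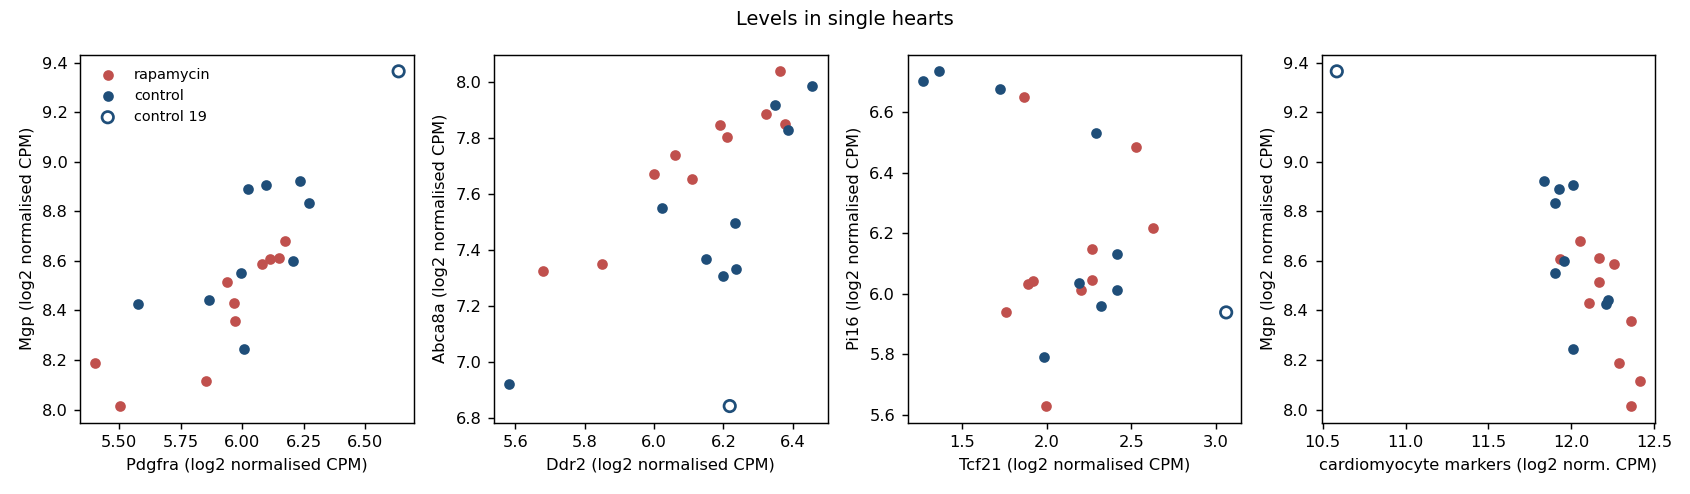
Log2 normalised CPM in single hearts for Pdgfra and Mgp, Ddr2 and Abca8a, Tcf21 and Pi16, and for the mean of 12 cardiomyocyte markers and Mgp; red points are rapamycin hearts, blue points control hearts and the open circle control 19. Hearts with more Pdgfra had more Mgp (r = 0.81) and hearts with a higher cardiomyocyte level had less Mgp (r = -0.75). Both r are from values centred on the mean of each diet, and the points shown are not centred. Control 19 lies at the end of both, and off the other points of Ddr2 and Abca8a.

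Levels of other cell types moved with some of the marker genes across hearts. Among 70 relations between the 10 genes and the mean log2 levels of 6 cell type lists and the library total, 4 passed by permutation over all hearts. The level of 12 cardiomyocyte markers was negatively correlated with Mgp (r = -0.75, permutation p = 8e-05, adjusted p = 0.00537, rho -0.74, permutation p = 0.00024, adjusted p = 0.0144) and with Pdgfra (r = -0.69, permutation p = 0.00023, adjusted p = 0.00537, rho -0.73, permutation p = 0.00041, adjusted p = 0.0144). Without the 2 hearts farthest on the cardiomyocyte level r was -0.67 for Mgp and -0.64 for Pdgfra, and without control 19 it was -0.69 and -0.67. For Tcf21 r was -0.72 (permutation p = 0.00021, adjusted p = 0.00537), -0.57 without the 2 farthest hearts and -0.65 without control 19, while its rho of -0.48 did not pass (permutation p = 0.0319, adjusted p = 0.306). For Ddr2 the correlation with the cardiomyocyte level passed without control 19 (r = -0.68, permutation p = 0.00132, adjusted p = 0.0301) and not over all hearts (r = -0.31, permutation p = 0.155, adjusted p = 0.440). For Dpt it also passed without that heart and not over all hearts, with an r of -0.64 without it (permutation p = 0.00488, adjusted p = 0.0488) and of 0.066 over all hearts (permutation p = 0.760, adjusted p = 0.932). None of these 5 relations passed as a rank correlation without control 19 (adjusted p = 0.0622 for Pdgfra, Dpt, Ddr2 and Mgp and 0.151 for Tcf21, by permutation). Unscaled CPM are shares of a library, so a larger share of cardiomyocyte transcripts leaves less for all others together. The levels used here were on TMM-scaled library sizes, and the part of such an effect in these correlations was not tested.

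Dpep1 was correlated with the level of 10 mesothelium and epicardium markers (r = 0.72, permutation p = 0.00089, adjusted p = 0.0156), with an r of 0.57 without the 2 farthest hearts and 0.67 without control 19 (adjusted p = 0.0301). Its rho of 0.66 did not pass (permutation p = 0.00226, adjusted p = 0.0527). All 10 markers of that list had estimates below 0 with rapamycin, and Msln, the mesothelial surface protein mesothelin, fell (-0.91 ± 0.24, adjusted p = 0.0405 by edgeR, and 0.0548 without control 19). With control 19 included, DESeq2 called 5 of the 10 and limma-voom 1, and 9 had an unadjusted p under 0.05 in edgeR. Without control 19 edgeR called 0 of the 10, and 9 had an unadjusted p under 0.05. The median log2 fold change of the list was -0.90 with that heart and -0.73 without it. DESeq2 and limma-voom were not run without it. Mfap5 and the level of 10 macrophage markers had an r of 0.56 (permutation p = 0.00572, adjusted p = 0.0741, rho 0.58, permutation p = 0.00767, adjusted p = 0.107), and without control 19 an r of 0.62 that passed (permutation p = 0.0014, adjusted p = 0.0301). Their r was 0.36 without the 2 hearts farthest on the macrophage level, and the rank correlation without control 19 did not pass (rho 0.68, adjusted p = 0.0622 by permutation). No marker gene was correlated with the library total (smallest adjusted p = 0.346 by permutation).

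Among the 13210 tested genes that averaged 2 CPM or more, those nearest to each marker by Spearman rho over 20 hearts are given as a description. Nearest to Abca8a were Itih5, a hyaluronan-binding protein of the matrix (rho 0.95), its paralog Abca8b (0.95) and the receptor-like Pdgfrl (0.90). Nearest to Dpt were the potassium channel gene Kcnt2 (0.94), the proteoglycan gene Dcn, which encodes decorin (0.88), and Scrn1 (0.82), and Scrn1 was also nearest to Ddr2 (0.90), before the polycystin gene Pkd2 (0.90) and Fam114a1 (0.88). Mfap5 had Efhd1 (0.91), the proteoglycan Vcan (0.86) and the secreted glycoprotein Fstl1 (0.86). Pdgfra had the collagen-binding receptor Antxr1 (0.89), the kinase Sgk3 (0.87) and Fam38b (0.86), an older symbol of the mechanosensitive channel Piezo2. Fam38b was near to Mgp too (0.86), between the phospholipase Pla2g4a (0.87) and Radil (0.85).

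Nearest to Gsn were the RNA helicase Ddx27 (rho 0.88), the matrix protein Fbln1 (0.81) and the chromatin remodelling subunit Smarcc2 (0.80). Nearest to Dpep1 were the membrane protein Tmem119 (0.85), the transcription factor Pbx2 (0.83) and Gpr97 (0.83). Tcf21 had Fgfbp3 (0.82), 6230409E13Rik (0.82) and Zc3hav1l (0.82). The lowest top value was that of Pi16, with the actin-associated Synpo (0.76), the ferritin receptor Scara5 (0.75) and Kif26b (0.74). Without control 19 the nearest gene stayed the same for Dpt (0.93), Gsn (0.86) and Abca8a (0.94), while for Pdgfra Antxr1 was at rank 11 (0.81).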

How the data were processed

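The study sequenced poly(A) RNA of whole frozen hearts, and per the series' design text reads of 50 bp were placed on build MGSCv37 at unique sites with at most 2 mismatches. For the aligner, counter, annotation and strand setting nothing is given in the sources used here; the submitters' processing notes list edgeR alone, with neither version nor role. The authors deposited raw read counts per gene symbol for 20 libraries, and a second table with CPM of 700 genes. The deposited CPM equal the counts divided by the library total (696 genes matched by symbol, largest difference 2.8e-05 CPM), and 0 of the 10 marker genes are in that table, which was used for this check only. All columns were assigned to a library by name.

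Counts were tested with edgeR 4.0.16 in R 4.3.3: default filter by expression, TMM scaling, quasi-likelihood F-test of rapamycin over control, Benjamini-Hochberg adjustment over all 13940 genes, threshold 0.05. The biological coefficient of variation was 0.202. The standard error is the log2 fold change divided by the square root of F. Levels are CPM on TMM-scaled library sizes; correlations used log2 CPM with a prior count of 2, centred on the diet mean, and 100000 permutations of hearts within diets (Python 3.11.15, scipy 1.17.1). Alternatives were other scalings, DESeq2 1.42.0, limma-voom (limma 3.58.1), no filter, and leaving out libraries. The test of a difference of r between diets, and leaving out single hearts for the pairs, were chosen after seeing the data. Intervals and counting errors cover what their names say and no bias of mapping or PCR.

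The marker genes and all lists were chosen with earlier results of these data known. Named besides the 10 genes are, of each partner list, every called gene and the 2 with the smallest p, of each cell type list the gene with the smallest p, and for each marker the 3 genes with the highest rho; Pdgfra with Abca8a and Mfap5 with Pi16, and the genes of other lists that other tools called, were named after their values were seen. The design text gives separate animals, and all 90 pairs of libraries of 1 diet differed beyond sampling noise (chi-square at least 5.4 times its degrees of freedom). Exon lengths come from GENCODE M21 on GRCm38. The scripts were checked on simulated counts.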

Additional observations from a re-analysis of the deposited data

Results flagged for a closer look

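The library of control 17 had the lowest Ddr2 of the control hearts, at 47.7 normalised CPM where the next control heart had 64.8. On the log2 scale this gap was 0.503 of the range of the 10 control hearts, which is past the 95% limit of Dixon's test for groups of that size. A gap of this kind arises by chance in about 1 of 20 groups, and 20 groups, the 10 marker genes in each diet, were looked at. In the same heart Pdgfra (47.5 normalised CPM) and Tcf21 (2.21) were also the lowest of the controls, whereas Dpep1 (89.1) and Pi16 (104) were above the mean of their diet.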

How the results depend on the processing

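Each of the 10 fold changes was recomputed under 27 alternatives. All 27 kept direction and side of the threshold for Pdgfra, Dpt, Ddr2, Mfap5, Pi16, Abca8a and Mgp. Dpep1 passed in 2 of them, without control 16 and with library totals without a scaling factor (-0.45, adjusted p = 0.0305 by edgeR), so that 1 marker gene was called in place of 0. With those totals the median of all genes was -0.13, so fold changes are lower by about that much. Gsn was 0.0094 without the 4 libraries with lung transcripts (control 19, control 1, control 20 and rapamycin 15). Tcf21 was above 0 in 10 alternatives: 0.044 with limma-voom, 0.13 without those 4 libraries, and -0.095 to 0.13 with 1 library left out. The count of genes called over the whole table was 1332 without scaling factors (48 up, 1284 down), 1018 with DESeq2 (327 up, 691 down), 1076 with limma-voom (418 up, 658 down), 280 without the 4 libraries with lung transcripts, and 165 to 791 with 1 library left out, against 469 (96 up, 373 down). Leaving out 1 library called 0 to 1 marker genes. The 9 correlated pairs became 17 without the 4 libraries with lung transcripts, 17 with no scaling factor, 1 within control hearts and 7 to 17 with 1 heart left out; rank correlation gave 12 and no centring 11. Where no cause is named, the cause was not tested. No paired analysis was possible because each library number occurs in 1 diet group. Depth limits Tcf21 most, with 22 to 79 counts per library.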

Other observations

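Markers of the other cells of the heart were read beside the fibroblast genes. Of 10 smooth muscle and pericyte markers 0 passed in edgeR (3 at an unadjusted p under 0.05; DESeq2 and limma-voom each called 3), 8 had estimates above 0 and the median log2 fold change was 0.18. The receptor Notch3 had the smallest p (0.34 ± 0.10, adjusted p = 0.0580 by edgeR, and 0.0550 without control 19), and 2 markers rose without control 19. Of 12 cardiomyocyte markers 0 passed in edgeR (7 at an unadjusted p under 0.05; DESeq2 called 0 and limma-voom 5), all 12 were above 0 and the median was 0.30, or 0.22 without control 19, where the ventricular light chain Myl2 rose (0.38, adjusted p = 0.0430 by edgeR). Of the macrophage markers, the lysosomal glycoprotein Cd68 had the smallest p (-0.96 ± 0.16, adjusted p = 0.00545 by edgeR), and all 10 fell without control 19.

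Of 10 endothelial markers 0 passed in edgeR, DESeq2 or limma-voom, with 0 at an unadjusted p under 0.05 and a median of -0.03, or 0.06 without control 19; the junction protein Cldn5 stood at -0.49 ± 0.37 (adjusted p = 0.450 by edgeR), and at 0.18 without control 19. Of 7 adipocyte markers 0 passed in edgeR, DESeq2 or limma-voom (0 at an unadjusted p under 0.05), with Lep at 0.77 ± 0.63 (adjusted p = 0.4996 by edgeR). Of 4 tested Schwann cell markers 0 passed in edgeR, DESeq2 or limma-voom (3 at an unadjusted p under 0.05, and 0 without control 19), with Pmp22 at -0.35 ± 0.15 (adjusted p = 0.186 by edgeR), or -0.14 without control 19. Of 6 cartilage and valve markers 2 were tested and 0 passed in edgeR, DESeq2 or limma-voom (0 at an unadjusted p under 0.05), with Sox9 at -0.11 ± 0.20 (adjusted p = 0.786 by edgeR), or -0.20 without control 19. No gene of the lung, liver and thymus lists passed the count filter of edgeR. DESeq2, which tested more genes, called 1 lung gene, Scgb1a1 of airway epithelium (log2 fold change -5.78, adjusted p = 7.34e-05), which is named after its values were seen. The 5 lung genes summed to 23990 normalised CPM in control 19 and to at most 351 in any other control, and DESeq2 was not run without control 19. The sum of 5 liver genes was 0.223 to 323 normalised CPM with rapamycin, highest in rapamycin 9, and 0.291 to 32.3 in controls. The sum of 4 thymus genes was 0 to 27.0 normalised CPM with rapamycin, highest in rapamycin 8, and 0.123 to 5.92 in controls.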
